A study of Rattus norvegicus with 6 samples.

Results

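The genes of the hypoxia response and of glycolysis were followed in granulation tissue, the new tissue that grows into a wound, between day 3 and day 1 after implantation. Their members were named in a list of 46 genes, and every row of the deposited table whose annotated symbol was on the list was taken. Of the 46 genes, 40 had a probe (41 rows of 22517, which name 13336 genes in all), and Aldoa had 2 rows. Hk1, Pgam1, Gys1, Egln1, Egln3 and Mxi1 had none and were not analysed here. The list holds 18 glycolytic enzymes, 9 enzymes that set glycolytic flux or handle glycogen, 8 oxygen sensors and subunits of the hypoxia-inducible factors (HIF), and 11 HIF targets outside glycolysis.

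The tissue came from subcutaneous implants in Sprague-Dawley rats, 10 weeks old. The implants were of cellulose with a coat of hydroxyapatite, a bone-like mineral. The day 3 group (72 hours) held rats 4, 6 and 7, and the day 1 group (24 hours) held rats 1, 2 and 3, with 1 sample per rat (n = 3 each). Every group carried an implant of the same material, and no unwounded tissue was part of the comparison. Signals were normalized log2 intensities of 1-colour Illumina bead arrays. In what follows, values at day 3 are given in the order of rats 4, 6 and 7 and values at day 1 in the order of rats 1, 2 and 3. A change is day 3 minus day 1 on the log2 scale.

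Glycolysis splits glucose into pyruvate in the cytosol, and lactate dehydrogenase turns pyruvate into lactate when it is not burned in mitochondria. When oxygen falls, the HIF alpha subunits are no longer hydroxylated by the Egln enzymes and degraded through Vhl. They then pair with Arnt, bind short DNA elements with the core letters CGTG, and raise transcription of most glycolytic enzymes and of genes for mitophagy, pH control and oxidative protein folding. In healing wounds, poorly perfused tissue and infiltrating leukocytes are both known to use glycolysis heavily.

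One rat of each day stood apart by its skeletal muscle genes. Over 21 measured muscle markers, the summed signal (linear scale) was 40675 in day 3 rat 6 and 49691 in day 1 rat 3. In the other 2 rats of each day it was 11115 and 13362 at day 3, and 6560 and 5454 at day 1. Muscle is rich in glycolytic enzymes, so results are also given without these 2 arrays. On none of the 6 arrays did the muscle markers Myh2, Myh4 and Tnni1 exceed the array median. Tnnc2, a troponin subunit of fast muscle, had 8.38, 12.41 and 7.22 at day 3, against 7.85, 8.57 and 12.89 at day 1. Over the 17 tested markers the median signal was 7.39, 10.61 and 6.71 at day 3, against 6.78, 7.51 and 11.26 at day 1. Not every marker followed this split. Car3 had 11.59, 11.40 and 12.94 at day 3, with rat 7 the highest. Tnnc1 had 8.93, 8.76 and 8.49 at day 1, with rat 3 the lowest. Car3 and Des weigh most in the sum of day 3 rat 7. The median change over all tested probes was -0.05, which the deposited quantile normalization holds near 0.

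Most of the measured hypoxia and glycolysis genes were lower at day 3 than at day 1. Of the 40 with a probe, 38 passed the filter on dim probes, 22 fell, 1 rose and 15 did not pass the test (limma, Benjamini-Hochberg adjusted p under 0.05 over 11591 probes). Among all tested probes, 31.9% changed, 15.2% fell and 16.7% rose. The largest fall was that of Ero1a, 5.35-fold, and the gene that rose was Pfkm, 2.45-fold. The median change of the 38 genes was -0.92, and 32 of 38 changes were negative. For 30 of the 38 genes the 3 day 3 rats and the 3 day 1 rats had separate ranges, as for 49.4% of all tested probes. Car9, which passed the filter only through day 3, is among the 30. These are bulk samples, so fewer cells of a type and less RNA per cell cannot be told apart.

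The number of calls depended on single rats, while the direction did not for any of the 23 genes called. Leaving out day 1 rat 1 gave 11 calls among the members, leaving out day 3 rat 6 gave 10, and leaving out day 3 rat 7 gave 9. Without day 1 rat 3 there were 31. Calls over all tested probes also depended on single rats, with their range given in the closing section. The member counts by left-out rat are therefore not read as an excess over all probes. Without both muscle-rich arrays, 26 genes fell and 3 rose, where 16.7% of all tested probes fell and 18% rose, and all 23 genes called on 6 arrays were among these 29 in the same direction. Hk2, Aldoc, Pkm, Ldha, Pdk1, Gbe1, Hif1a, Ankrd37 and Ero1a passed the test in each of the 15 alternatives, which left out rats or changed the background step, the filter, the normalization or the fit.

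**Figure D1:**
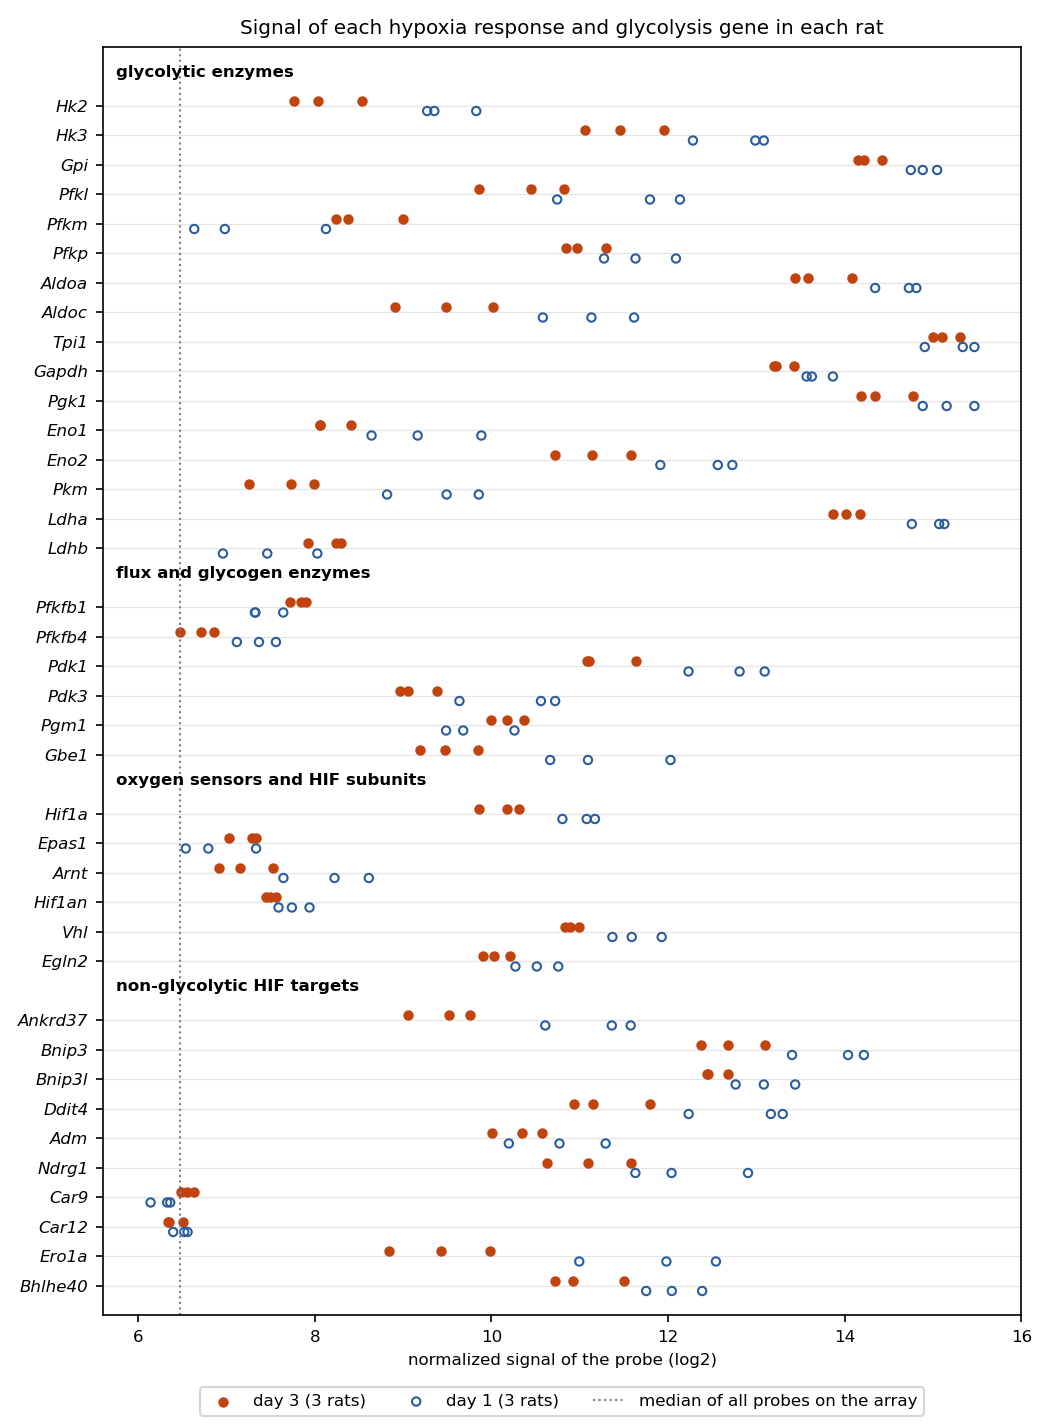
Normalized log2 signal of the 38 tested genes in each rat, with the genes in rows grouped by role and day 3 rats (filled) drawn above day 1 rats (open). The day 3 points lie left of the day 1 points for most genes, Pfkm and Ldhb lie the other way, and Car9 and Car12 sit near the dotted line of the array median.

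The start regions of the genes were searched for the core of the HIF binding element. RefSeq promoter windows of the rat assembly GRCr8, from 250 bases before the annotated start to 50 after it, were present for 42 of the 46 genes and not for Pgk1, Bnip3l, Ndrg1 and Ero1a. The letters ACGTG or GCGTG were searched on both strands, where overlapping matches such as the palindrome CACGTG count as 2. ACGTG was found for 25 of 42 members (59.5%) and for 20.9% of 27457 genes in the table, GCGTG for 17 of 42 (40.5%) and for 32.4%, and either motif for 30 of 42 (71.4%) and for 44.6%. A gene with several annotated starts was counted once if any window held the motif. The members were listed as glycolytic and HIF-regulated genes, so the excess over all genes cannot be told apart from that choice. By role, ACGTG was found for 11 of 17 glycolytic enzymes, 5 of 9 flux and glycogen enzymes, 2 of 8 oxygen sensors and HIF subunits and 7 of 8 HIF targets outside glycolysis.

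Among members that fell at day 3, 15 of 20 with a window held ACGTG, and among tested members that did not pass, 4 of 13 did. GCGTG was held by 9 of these 20 and 5 of these 13 (45% and 38.5%), and either motif by 16 and 7. These counts are descriptions of the windows, not of binding. The share with ACGTG also differed by role, role was not accounted for in this split, and no test was made. The windows of 5 genes are printed with the motifs, on either strand, in capitals. Ankrd37 and Bnip3 stand for targets outside glycolysis and Ldha for glycolysis, and all of them fell. Pfkm rose with 1 match, and Pkm fell with none in its window. They lie in GRCr8 at chr16:53001257-53001556 on the plus strand, chr1:203154913-203155212 on the minus strand, chr1:106507842-106508141 on the plus strand, chr7:131113849-131114148 on the plus strand and chr8:68953385-68953684 on the plus strand, in that order.
Ankrd37: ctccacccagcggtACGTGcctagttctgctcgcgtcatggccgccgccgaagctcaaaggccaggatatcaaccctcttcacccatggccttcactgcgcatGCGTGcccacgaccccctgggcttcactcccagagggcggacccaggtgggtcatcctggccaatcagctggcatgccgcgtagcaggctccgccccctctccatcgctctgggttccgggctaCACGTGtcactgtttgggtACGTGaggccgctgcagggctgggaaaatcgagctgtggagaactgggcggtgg
Bnip3: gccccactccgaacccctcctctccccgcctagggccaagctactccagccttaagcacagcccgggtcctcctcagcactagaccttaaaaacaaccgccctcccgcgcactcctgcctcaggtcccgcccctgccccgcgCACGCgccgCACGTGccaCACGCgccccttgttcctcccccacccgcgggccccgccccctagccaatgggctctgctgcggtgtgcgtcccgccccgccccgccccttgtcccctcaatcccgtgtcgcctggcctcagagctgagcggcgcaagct
Ldha: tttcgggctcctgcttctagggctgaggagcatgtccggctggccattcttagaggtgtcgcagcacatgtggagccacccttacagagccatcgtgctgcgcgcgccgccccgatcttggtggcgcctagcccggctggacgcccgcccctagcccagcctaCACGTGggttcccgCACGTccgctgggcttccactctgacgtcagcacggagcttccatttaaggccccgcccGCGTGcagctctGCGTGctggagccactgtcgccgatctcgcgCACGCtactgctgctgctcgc
Pfkm: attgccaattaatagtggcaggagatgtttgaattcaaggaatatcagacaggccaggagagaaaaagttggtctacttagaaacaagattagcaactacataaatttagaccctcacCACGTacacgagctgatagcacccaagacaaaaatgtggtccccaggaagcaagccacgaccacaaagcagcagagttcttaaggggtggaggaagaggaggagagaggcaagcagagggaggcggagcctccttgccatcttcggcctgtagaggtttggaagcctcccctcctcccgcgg
Pkm: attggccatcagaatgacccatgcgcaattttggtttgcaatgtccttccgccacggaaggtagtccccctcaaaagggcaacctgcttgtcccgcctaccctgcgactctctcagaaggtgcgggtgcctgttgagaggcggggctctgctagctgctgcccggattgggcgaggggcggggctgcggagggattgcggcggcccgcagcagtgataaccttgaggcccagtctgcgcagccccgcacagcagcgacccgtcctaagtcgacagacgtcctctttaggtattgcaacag

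Of the 16 measured glycolytic enzymes, 10 fell, 1 rose and 5 did not pass, with a median change of -0.95. Falls were found at the entry step, in the middle and at the last steps of the pathway. Hexokinase, which traps glucose in the cell by phosphorylating it, was measured as Hk2 and Hk3. Hk2, the inducible form, had 8.54, 8.03 and 7.77 at day 3, against 9.35, 9.83 and 9.27 at day 1, a 2.59-fold fall (change -1.37 ± 0.236 SE, adjusted p = 0.00639). Hk3, a form known from white blood cells, had 11.96, 11.06 and 11.46 at day 3, against 12.99, 13.08 and 12.28 at day 1, a 2.45-fold fall (change -1.29 ± 0.291 SE, adjusted p = 0.0159). For both, every day 3 rat lay below every day 1 rat. Gpi, which turns glucose 6-phosphate into fructose 6-phosphate, had 14.42, 14.22 and 14.15 at day 3, against 15.05, 14.88 and 14.75 at day 1 and fell 1.55-fold (adjusted p = 0.0125). Hk3 missed the threshold when rat 1 of day 1 (adjusted p = 0.0623), rat 6 of day 3 (0.056) or rat 7 of day 3 (0.0583) was left out. Gpi missed the threshold when rat 6 of day 3 (adjusted p = 0.0519) or rat 7 of day 3 (0.0558) was left out.

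Phosphofructokinase catalyses the committed step of glycolysis, and its muscle type was the gene that rose. Pfkm, the muscle type, had 8.38, 9.0 and 8.24 at day 3, against 6.98, 6.63 and 8.13 at day 1 and was 2.45-fold higher (change 1.29 ± 0.396 SE, adjusted p = 0.0449). The highest day 1 value of Pfkm, in the muscle-rich rat 3, lay just under the lowest day 3 value. Without both muscle-rich arrays its change was 1.5 (adjusted p = 0.00335). Pfkm missed the threshold when rat 1 of day 1 (adjusted p = 0.135), rat 2 of day 1 (0.113), rat 6 of day 3 (0.144), rat 4 of day 3 (0.0895) or rat 7 of day 3 (0.0824) was left out. Pfkl, the liver type, had 10.82, 9.86 and 10.45 at day 3, against 11.80, 12.13 and 10.74 at day 1, and Pfkp, the platelet type, had 11.30, 10.97 and 10.85 at day 3, against 11.63, 12.09 and 11.27 at day 1. Neither passed the test on 6 arrays (changes -1.18 and -0.63, adjusted p = 0.0584 and 0.0755), and in both the days overlapped only through day 1 rat 3, the lowest day 1 value. Both passed when rat 3 of day 1 was left out (adjusted p = 0.00423 for Pfkl and 0.015 for Pfkp).

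Aldolase splits the sugar bisphosphate, and both measured forms fell. Aldoa, the form of muscle and most cells, had 14.08, 13.58 and 13.43 at day 3, against 14.81, 14.73 and 14.35 at day 1 (1.9-fold lower, adjusted p = 0.0154). Its second probe changed by -0.85 (adjusted p = 0.0143). Aldoc, best known from brain, had 10.01, 9.49 and 8.91 at day 3, against 11.13, 11.62 and 10.58 at day 1 and fell 3.12-fold (change -1.64 ± 0.344 SE, adjusted p = 0.0125). Tpi1, which interconverts the products of aldolase, had 15.30, 15.10 and 15.00 at day 3, against 14.91, 15.34 and 15.47 at day 1. The days of Tpi1 overlapped and its change of -0.10 did not pass the test (95% confidence interval -0.52 to 0.31), and without day 1 rat 3 the change was 0.010. Aldoa missed the threshold when rat 1 of day 1 (adjusted p = 0.0603), rat 6 of day 3 (0.0618) or rat 7 of day 3 (0.0597) was left out.

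Downstream of these steps, Pgk1, which makes the first ATP, had 14.77, 14.34 and 14.18 at day 3, against 15.47, 15.15 and 14.88 at day 1 and fell 1.67-fold (adjusted p = 0.0348). Pgk1 in day 1 rat 1 and Tpi1 in day 1 rat 3 were the brightest probes of their arrays, where the deposited normalization fixes the highest value, and their changes may be understated. Gapdh, the enzyme before Pgk1 and a common reference gene, had 13.20, 13.42 and 13.23 at day 3, against 13.87, 13.57 and 13.63 at day 1. The days of Gapdh did not overlap, but the change of -0.40 did not pass (adjusted p = 0.0533). Pgk1 missed the threshold when rat 1 of day 1 (adjusted p = 0.105), rat 2 of day 1 (0.0735), rat 6 of day 3 (0.11) or rat 7 of day 3 (0.119) was left out.

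Enolase makes phosphoenolpyruvate. Eno1, the form of most cells, had 8.05, 8.06 and 8.41 at day 3, against 9.89, 9.16 and 8.64 at day 1 (2.08-fold lower, adjusted p = 0.0362), and Eno2, the form of neurons, had 11.58, 10.72 and 11.14 at day 3, against 12.56, 12.73 and 11.91 at day 1 (2.38-fold lower, adjusted p = 0.0161). Pkm, the pyruvate kinase of most tissues, had 7.99, 7.74 and 7.26 at day 3, against 9.86, 9.49 and 8.82 at day 1. The fall of Pkm, 3.31-fold, was the largest among the glycolytic enzymes (change -1.73 ± 0.298 SE, adjusted p = 0.00647), and its start region is the one printed above without a match. Eno1 missed the threshold when rat 1 of day 1 (adjusted p = 0.0624), rat 2 of day 1 (0.0739), rat 6 of day 3 (0.112), rat 4 of day 3 (0.103) or rat 7 of day 3 (0.0707) was left out. Eno2 missed the threshold when rat 1 of day 1 (adjusted p = 0.0628), rat 6 of day 3 (0.0565) or rat 7 of day 3 (0.0582) was left out.

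Lactate dehydrogenase is built from Ldha chains, which favour lactate formation, and Ldhb chains, which favour the reverse reaction. Ldha had 14.18, 14.01 and 13.86 at day 3, against 15.13, 15.07 and 14.76 at day 1, a 1.96-fold fall with little spread within each day (change -0.97 ± 0.147 SE, adjusted p = 0.00424). Ldhb had 7.92, 8.24 and 8.29 at day 3, against 7.46, 6.96 and 8.03 at day 1, higher at day 3 by 0.67 without passing the test (adjusted p = 0.0981). The days of Ldhb overlapped through the muscle-rich day 1 rat 3 and day 3 rat 4. Without day 1 rat 3 Ldhb had adjusted p = 0.00818, and without both muscle-rich arrays its change was 0.90 (adjusted p = 0.0311).

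**Figure D2:**
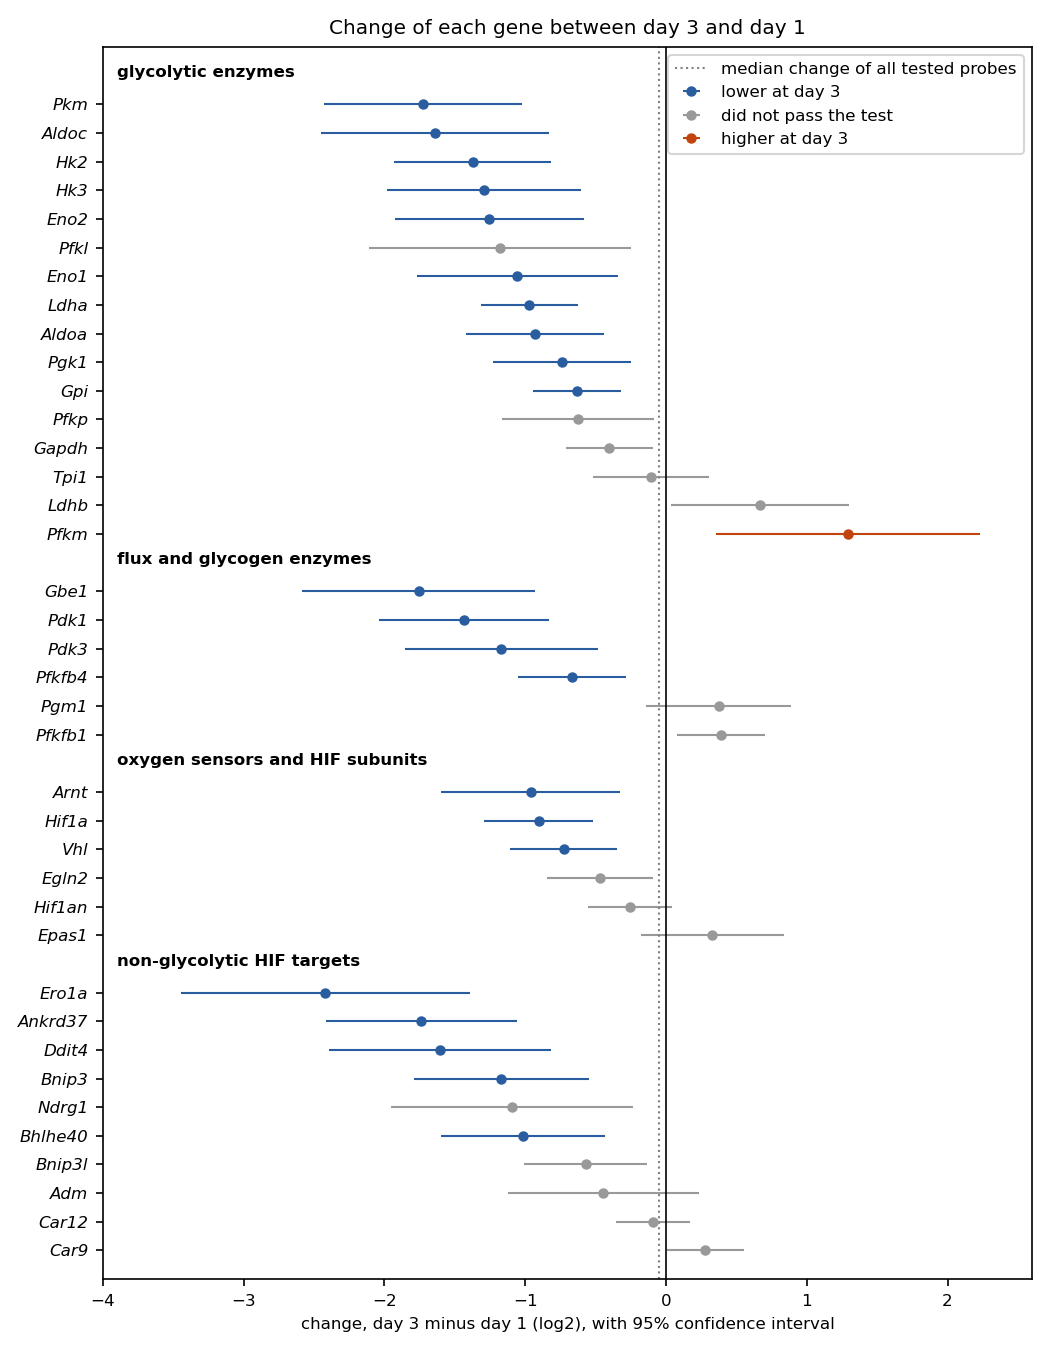
Change of each tested gene between day 3 and day 1 on the log2 scale with its 95% confidence interval from limma, grouped by role and sorted within each role. Ero1a has the lowest value, at -2.42, and Pfkm the highest, at 1.29, while the dotted line marks the median change of all tested probes, -0.05.

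Enzymes that steer flux into or out of glycolysis came next. Of 8 measured flux and glycogen enzymes, 6 passed the filter, 4 fell and 2 did not pass. Pdk1 and Pdk3 are kinases that switch off pyruvate dehydrogenase and so keep pyruvate out of mitochondria. Pdk1 had 11.64, 11.08 and 11.11 at day 3, against 12.81, 13.09 and 12.23 at day 1 and fell 2.71-fold (change -1.44 ± 0.256 SE, adjusted p = 0.00723), and Pdk3 had 9.38, 8.97 and 9.06 at day 3, against 10.56, 10.72 and 9.64 at day 1 and fell 2.25-fold (adjusted p = 0.022). Pdk2, a related kinase outside the member list and named here after its values were seen, went the other way. It had 8.45, 8.88 and 8.25 at day 3, against 7.74, 7.72 and 7.94 at day 1 (1.66-fold higher, adjusted p = 0.0219). Pdk4 did not pass the filter on dim probes. Gbe1, the branching enzyme of glycogen synthesis, had 9.85, 9.19 and 9.47 at day 3, against 11.09, 12.03 and 10.66 at day 1. Its 3.38-fold fall was the largest of this role (change -1.76 ± 0.35 SE, adjusted p = 0.0107). Pdk3 missed the threshold when rat 1 of day 1 (adjusted p = 0.0803), rat 2 of day 1 (0.0558), rat 6 of day 3 (0.0798) or rat 7 of day 3 (0.0764) was left out.

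The Pfkfb genes encode the enzymes that make and break fructose 2,6-bisphosphate, the activator of phosphofructokinase. Pfkfb4 had 6.86, 6.72 and 6.47 at day 3, against 7.37, 7.56 and 7.12 at day 1 and fell 1.59-fold (adjusted p = 0.0207), with day 3 rat 7 at the array median, so that its fall may be understated. Pfkfb1 had 7.72, 7.85 and 7.89 at day 3, against 7.33, 7.32 and 7.64 at day 1, higher at day 3 with no overlap and a change of 0.39 that did not pass (adjusted p = 0.0612). Pfkfb2 and Pfkfb3 were above the array median on 2 arrays each, both at day 1, with values between 6.07 and 6.56, and were not tested. Pgm1, which links glycogen to glucose 6-phosphate, had 10.18, 10.37 and 10.00 at day 3, against 9.68, 10.26 and 9.49 at day 1, overlapping days and a change of 0.37 (adjusted p = 0.229). Pfkfb4 missed the threshold when rat 1 of day 1 (adjusted p = 0.0678), rat 6 of day 3 (0.0636) or rat 7 of day 3 (0.0775) was left out. Pfkfb1 passed the threshold when rat 3 of day 1 (adjusted p = 0.0172) was left out, and Pgm1 passed the threshold when rat 2 of day 1 (adjusted p = 0.0334) was left out.

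Genes of the oxygen-sensing machinery fell in part. Of 6 measured, Hif1a, Arnt and Vhl fell and 3 did not pass, with a median change of -0.60. Hif1a, the alpha subunit present in most cells, had 9.86, 10.17 and 10.32 at day 3, against 10.80, 11.08 and 11.17 at day 1, a 1.87-fold fall (change -0.90 ± 0.164 SE, adjusted p = 0.00779). Epas1, which encodes the HIF-2 alpha subunit known from endothelium, had 7.29, 7.33 and 7.03 at day 3, against 6.79, 6.54 and 7.33 at day 1. The days of Epas1 overlapped and its change of 0.33 did not pass (adjusted p = 0.278). Arnt, the shared partner, had 7.52, 6.92 and 7.16 at day 3, against 8.22, 8.61 and 7.64 at day 1 and fell 1.95-fold (adjusted p = 0.0339). HIF alpha is controlled mainly at the protein level, which these arrays do not measure.

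Vhl, which marks hydroxylated HIF alpha for degradation, had 10.88, 10.99 and 10.83 at day 3, against 11.37, 11.93 and 11.59 at day 1 and fell 1.66-fold (adjusted p = 0.0148). Hif1an, which blocks the HIF transactivation domain, changed by -0.26 (adjusted p = 0.163), and Egln2, a prolyl hydroxylase of HIF alpha, by -0.47 (adjusted p = 0.0621). Hif1an had 7.49, 7.56 and 7.45 at day 3, against 7.74, 7.94 and 7.59 at day 1, and Egln2 had 10.21, 10.03 and 9.90 at day 3, against 10.51, 10.76 and 10.27 at day 1. In both, the day 3 values lay below the day 1 values without overlap. Arnt missed the threshold when rat 1 of day 1 (adjusted p = 0.1), rat 2 of day 1 (0.076), rat 6 of day 3 (0.114) or rat 7 of day 3 (0.102) was left out. Vhl missed the threshold when rat 4 of day 3 (adjusted p = 0.0529) or rat 7 of day 3 (0.0612) was left out. Epas1 and Egln2 passed when rat 3 of day 1 was left out (changes 0.55 and -0.59, adjusted p = 0.0262 and 0.0189).

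HIF targets outside glycolysis showed the largest single fall. Of 10 measured, 5 fell, none rose and 5 did not pass (median change -1.05, against -0.95 for the glycolytic enzymes). All 22 tested members that are not glycolytic enzymes counted 12 that fell and none that rose (median change -0.82), and no test between the lists was made. Ero1a, an oxidase of the endoplasmic reticulum that drives disulfide bond formation, had 9.98, 8.84 and 9.43 at day 3, against 11.98, 12.54 and 10.99 at day 1. Its days did not overlap but its values spread widely within each day, with a 5.35-fold fall (change -2.42 ± 0.434 SE, adjusted p = 0.0074). Ankrd37, an ankyrin repeat protein induced by hypoxia, had 9.76, 9.06 and 9.52 at day 3, against 11.36, 11.58 and 10.61 at day 1 and fell 3.33-fold (change -1.74 ± 0.287 SE, adjusted p = 0.00557). Ddit4, an inhibitor of mTORC1 signalling, had 11.79, 10.93 and 11.15 at day 3, against 13.16, 13.30 and 12.23 at day 1 and fell 3.05-fold (change -1.61 ± 0.334 SE, adjusted p = 0.0121). Ddit4 missed the threshold when rat 1 of day 1 (adjusted p = 0.0506), rat 6 of day 3 (0.0514) or rat 7 of day 3 (0.0504) was left out.

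Bnip3 and Bnip3l encode related receptors for the removal of mitochondria. Bnip3 had 13.10, 12.38 and 12.68 at day 3, against 14.04, 14.22 and 13.40 at day 1 and fell 2.25-fold (adjusted p = 0.016). Bnip3l had 12.68, 12.46 and 12.45 at day 3, against 13.08, 13.44 and 12.77 at day 1, without overlap and with a smaller change of -0.57 that did not pass (adjusted p = 0.0542). Bhlhe40, a transcriptional repressor, had 11.50, 10.92 and 10.71 at day 3, against 12.04, 12.39 and 11.75 at day 1 and fell 2.02-fold (adjusted p = 0.0206). Bnip3 missed the threshold when rat 1 of day 1 (adjusted p = 0.0622), rat 6 of day 3 (0.0606) or rat 7 of day 3 (0.0597) was left out. Bhlhe40 missed the threshold when rat 1 of day 1 (adjusted p = 0.0655), rat 2 of day 1 (0.0533), rat 6 of day 3 (0.0755) or rat 7 of day 3 (0.0736) was left out. Bnip3l passed the threshold when rat 3 of day 1 (adjusted p = 0.00957) was left out.

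The other targets did not pass. Ndrg1, a stress-responsive gene, had 11.58, 10.62 and 11.09 at day 3, against 12.04, 12.91 and 11.63 at day 1 (change -1.09, adjusted p = 0.0588), with no overlap, since the highest day 3 value lay just below the lowest day 1 value. Ndrg1 passed the threshold when rat 3 of day 1 (adjusted p = 0.0157) was left out. Adm, which encodes the vasodilator peptide adrenomedullin, had 10.58, 10.35 and 10.00 at day 3, against 10.20, 11.29 and 10.77 at day 1. The days of Adm overlapped (change -0.44, adjusted p = 0.274). Car9 and Car12, membrane carbonic anhydrases that acidify the cell surroundings, lay near the array median of 6.47. Car9 had 6.55, 6.64 and 6.48 at day 3, against 6.14, 6.33 and 6.36 at day 1. Car9 exceeded the array median on no day 1 array and passed the filter only through day 3, where it was at least 1.06-fold higher without passing the test (adjusted p = 0.11). Car12 was above the median on 3 arrays, 1 at day 3 and 2 at day 1 (change -0.09, adjusted p = 0.563).

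Shifts between isozymes were compared as the log2 difference of a pair within each rat, which cancels what both probes share. Levels of different probes are not comparable, so only the change of the difference between days is read. Of 12 pairs with both probes tested, Car9 minus Car12 is set aside, since Car9 passed the filter only through day 3. The days did not overlap for 7 of the other 11, where 49.4% of all tested single probes had separate days. The share among other pairs of probes was not computed. With 3 rats against 3 the exact two-sided permutation test cannot give less than 0.1, which these 7 pairs had (0.15 after adjustment over 12 pairs), so none can pass 0.05. Pfkl minus Pfkm was 2.44, 0.86 and 2.21 at day 3 and 4.81, 5.50 and 2.62 at day 1 (change -2.47), the widest shift, and Pfkm minus Pfkp was -2.92, -1.97 and -2.61 at day 3 and -4.65, -5.45 and -3.15 at day 1 (change 1.92). Ldha minus Ldhb was 6.25, 5.77 and 5.57 at day 3 and 7.67, 8.11 and 6.73 at day 1 (change -1.64). These pairs shifted toward Pfkm and Ldhb at day 3, and in each the day 1 value nearest to day 3 was that of the muscle-rich rat 3. This rat differed from rats 1 and 2 also in other cell markers, given below, and the part of each was not tested.

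Hif1a minus Epas1 was 2.56, 2.84 and 3.29 at day 3 and 4.01, 4.54 and 3.84 at day 1 (change -1.23), and Bnip3 minus Bnip3l was 0.43, -0.08 and 0.23 at day 3 and 0.95, 0.78 and 0.64 at day 1 (change -0.60). Aldoa minus Aldoc was 4.07, 4.10 and 4.53 at day 3 and 3.68, 3.11 and 3.76 at day 1 (change 0.71), with the larger fall in Aldoc. Pfkfb1 minus Pfkfb4 changed by 1.06, with Pfkfb4 at the array median in day 3 rat 7. The days overlapped for Hk2 minus Hk3 (change -0.08, exact p = 0.7), Eno1 minus Eno2 (0.20, exact p = 0.7), Pdk1 minus Pdk3 (-0.27, exact p = 0.2) and Pfkl minus Pfkp (-0.55, exact p = 0.3).

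**Figure D3:**
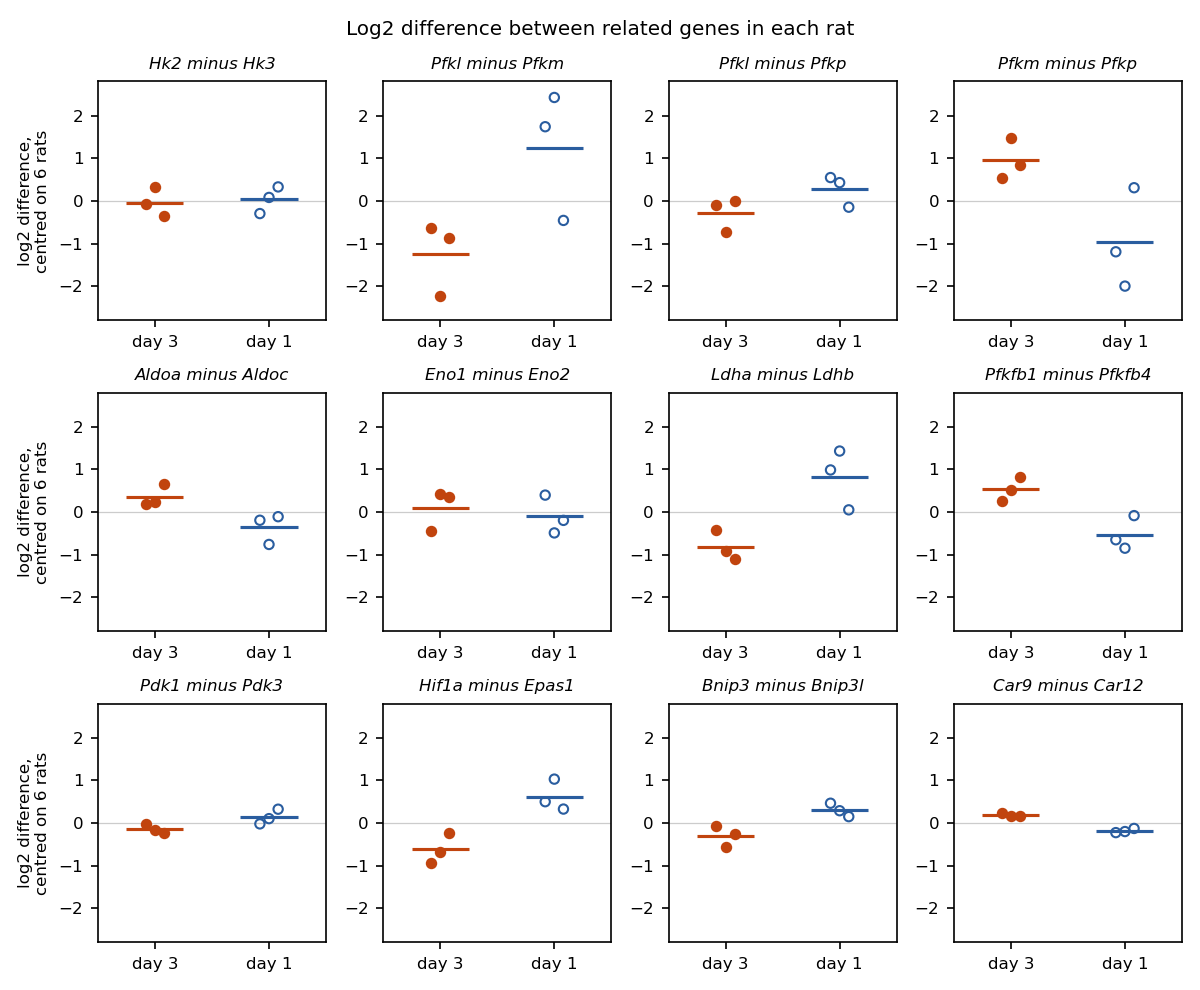
Log2 difference between the probes of 12 related gene pairs in each rat, centred on the mean of the 6 rats, with day 3 (filled) left of day 1 (open) and bars at the group means. The shift is -2.47 for Pfkl minus Pfkm and -1.64 for Ldha minus Ldhb, and Hk2 minus Hk3 has a change of -0.08. Car9 minus Car12 is drawn but not read, since Car9 exceeded the array median on no day 1 array.

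Within each day, 1 rat lay at the near end of its day for most members that fell. Day 3 rat 4 had the highest day 3 value in 19 of the 22 genes, and day 1 rat 3 had the lowest day 1 value in 20 of 22. Among all 1757 probes that fell, rat 4 was the highest of day 3 in 57.1% and rat 3 the lowest of day 1 in 75.3%. Median signals of the glycolytic enzymes were 11.44, 10.85 and 10.99 at day 3, against 12.18, 12.43 and 11.59 at day 1. Those of the HIF targets outside glycolysis were 11.04, 10.49 and 10.36 at day 3, against 12.01, 12.46 and 11.31 at day 1. The flux and glycogen enzymes had 9.62, 9.08 and 9.27 at day 3, against 10.12, 10.49 and 9.56 at day 1, and the oxygen sensors and HIF subunits had 8.69, 8.79 and 8.67 at day 3, against 9.37, 9.68 and 8.96 at day 1. The days overlapped for the flux and glycogen enzymes, between day 3 rat 4 and day 1 rat 3, and not for the other roles. Rat 2 had the highest median of day 1 in all 4 roles, while the highest of day 3 was rat 6 for the oxygen sensors and HIF subunits and rat 4 for the others.

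Markers of several cell types moved with the days. Of 19 measured neutrophil markers, 14 were tested, 11 fell and Lcn2 rose, and the summed signal of the list was 30057 to 38964 at day 3 and 54414 to 65198 at day 1. Ncf1, a subunit of the phagocyte oxidase, had 12.16, 11.58 and 12.14 at day 3, against 13.42, 13.92 and 12.90 at day 1 (change -1.45, adjusted p = 0.00976), and S100a8, a calcium-binding protein of neutrophils, had 12.34, 12.27 and 11.80 at day 3, against 13.82, 13.66 and 13.53 at day 1 (change -1.53, adjusted p = 0.00168). S100a9, Ltf, Ngp and Fpr1 never exceeded the array median. Median signals of the 14 tested neutrophil markers were 8.74, 8.39 and 7.85 at day 3, against 10.94, 11.13 and 10.29 at day 1. By this median rat 4 was the highest of day 3, while by the summed signal it was the lowest (30057, 34449 and 38964 in rats 4, 6 and 7). Lcn2, the marker that rose, was the brightest of the list in each day 3 rat and weighs most in these sums. It had 13.83, 14.39 and 14.70 at day 3, against 12.50, 12.68 and 13.64 at day 1. The part of the leukocyte content in the fall of the glycolysis genes was not tested.

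The summed signal of 14 fibroblast markers was 163730 to 182977 at day 3 and 45141 to 89759 at day 1, where 12 rose and 1 fell, and that of 9 endothelial markers was 11210 to 13606 at day 3 and 3345 to 6655 at day 1, where 6 of 7 tested rose. For 14 macrophage markers the sum was 52638 to 77872 at day 3 and 37109 to 54183 at day 1, and of 13 tested 6 rose and 3 fell. The 7 red cell markers had 60078 to 90721 at day 3 and 88406 to 117494 at day 1, and 1 fell. Marco, Cdh5 and Robo4 never exceeded the array median. Day 1 rat 3 had the highest day 1 sum of the fibroblast and of the endothelial markers and the lowest of the neutrophil markers. It therefore differed from the other day 1 rats in more than its muscle signal. The part of fibroblasts, endothelial cells, macrophages and red cells in the members' changes was not tested either.

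**Figure D4:**
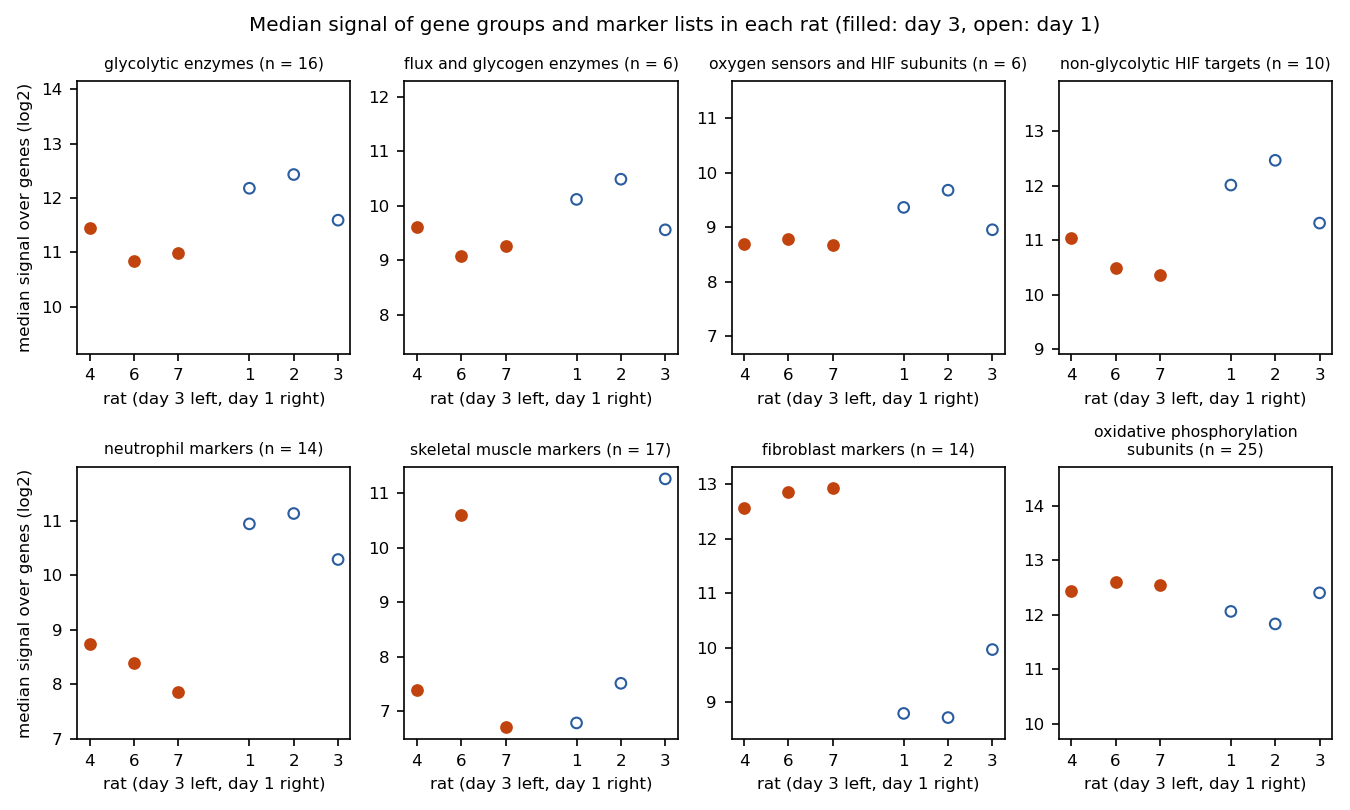
Median log2 signal of each role group and of 4 other lists in each rat, day 3 rats 4, 6 and 7 (filled) left of day 1 rats 1, 2 and 3 (open), with axes of equal span. Day 3 rats lie below all day 1 rats for the glycolytic enzymes, the oxygen sensors and HIF subunits, the HIF targets outside glycolysis and the neutrophil markers, the flux and glycogen enzymes overlap between day 3 rat 4 and day 1 rat 3, the fibroblast markers are higher at day 3, and the muscle markers are high in day 3 rat 6 and day 1 rat 3.

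All genes that fell on 6 arrays also fell without the muscle-rich arrays, with larger falls for all but Hif1a. Day 1 rat 3 had the lowest day 1 value in 20 of these 22 genes, so leaving it out raises their day 1 means. That rat also differed from the other day 1 rats in other cell markers, so this setting does not isolate muscle. Without day 3 rat 6 and day 1 rat 3 the median change of the 38 genes was -0.93, against -0.92 on 6 arrays. By role it was -1.05 for the glycolytic enzymes (-0.95 on 6 arrays) and -1.11 for the flux and glycogen enzymes (-0.92). For the oxygen sensors and HIF subunits it was -0.69 (-0.60), and for the HIF targets outside glycolysis -1.12 (-1.05). Ero1a changed by -2.55, Pkm by -2.05, Ldha by -1.08 and Hif1a by -0.85. Of the 15 genes that had not passed on 6 arrays, 6 did so here, with Pfkl, Pfkp, Bnip3l and Ndrg1 lower and Ldhb and Pfkfb1 higher. Pgm1, an enzyme abundant in muscle, had the smaller change of 0.12 in place of 0.37. Among the called members, the change that moved most in the alternatives was that of Eno1. It was -1.59 with array weights in place of -1.06, and the fold changes differ by a ratio of 1.44.

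**Figure D5:**
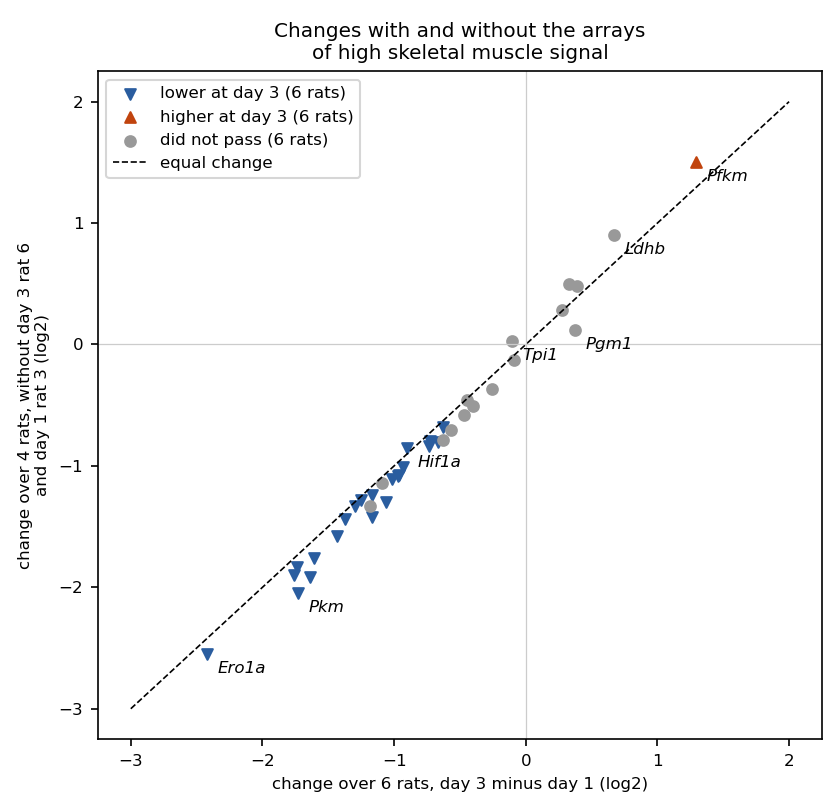
Change of each tested gene over 4 rats, leaving out rat 6 of day 3 and rat 3 of day 1 (vertical axis), against its change over all 6 rats (horizontal axis), both as log2 day 3 minus day 1. Points lie near the dashed line of equal change, with Pkm at -2.05 on the vertical axis against -1.73 on the horizontal one.

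Other genes of these pathways moved both ways. Of 29 measured genes of glucose supply, glycogen and further glycolytic isozymes, 21 were tested, 7 fell and 4 rose (median change -0.15). Among all tested probes, 15.2% fell and 16.7% rose. Slc2a6, a glucose transporter family member of leukocytes and lysosomes, had 9.16, 8.54 and 8.79 at day 3, against 11.34, 11.49 and 10.83 at day 1 (change -2.39, adjusted p = 0.00104). Pygl and Pygb, the liver and brain forms of glycogen phosphorylase, moved in opposite directions, with changes of -1.51 (adjusted p = 0.0118) and 0.95 (adjusted p = 0.00534). Pygl had 11.93, 11.02 and 11.52 at day 3, against 13.29, 13.28 and 12.42 at day 1, and Pygb had 11.02, 10.66 and 10.91 at day 3, against 10.11, 9.92 and 9.72 at day 1. Ldhc, the testis form of lactate dehydrogenase, changed by -1.51 (adjusted p = 0.0141). Slc2a1, the common glucose transporter and named here after its values were seen, did not pass the filter on dim probes.

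Of 34 further measured HIF pathway and target genes, 31 were tested, 9 fell and 5 rose (median change -0.20). The shares over all tested probes were again 15.2% and 16.7%. Lox, which cross-links collagen, had 14.45, 14.52 and 14.40 at day 3, against 11.53, 10.98 and 12.20 at day 1 (change 2.89, adjusted p = 0.00117). Nos2, the inducible nitric oxide synthase, changed by -2.08 (adjusted p = 0.00272), the chemokine receptor Cxcr4 by -1.70 (adjusted p = 0.000723) and the ubiquitin ligase subunit Wsb1 by -1.59 (adjusted p = 0.0197). P4ha2, which hydroxylates collagen and was chosen here after its values were seen, had 10.28, 10.32 and 10.34 at day 3, against 8.90, 9.76 and 8.13 at day 1 (change 1.38, adjusted p = 0.0282). Vegfa, chosen in the same way, had 9.73, 8.63 and 8.26 at day 3, against 10.12, 10.64 and 9.51 at day 1, with a change of -1.22 (adjusted p = 0.0681) that did not pass.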

How the data were processed

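Total RNA of 6 samples, 1 per rat, was amplified from 100 ng and hybridised to Illumina bead arrays, per the labels' protocols. The values deposited by the authors are linear intensity values, 1 per probe and array, already quantile normalized, since the sorted columns differ by at most 0.535 units. The submitters' processing notes name limma without a version, and the sources used here do not give a background step. A second deposited table has 12 columns of per-sample values whose headers match no label, so it was not used here and no detection p-value entered.

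The deposited intensity values were corrected with normexp (offset 50) and put on the log2 scale in limma 3.58.1 under R 4.3.3. A probe was kept if at least 3 of its 6 values exceeded the array median (11591 probes), tested with lmFit and eBayes, two-sided, and adjusted by Benjamini-Hochberg over all kept probes. The fit was tested on simulated data. Fold changes are on the offset scale and understate those of dim probes. A gene with several kept probes is given by the brightest. The labels name separate rats, so p-values measure the spread between animals. Precision is limited by having 3 arrays per day.

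Gene names came from the platform annotation (13787 rows with 1 symbol, 8730 unnamed here), and promoter sequences from RefSeq (GRCr8). The members and lists were chosen with earlier results of these data known. All members may be named, and of each other list the 4 called genes with the largest change, or of marker lists the brightest, among which only some are given. The alternatives were no or another background step (offset 16), cyclic loess, 2 other filters, array weights, a robust fit with an intensity trend, the mean of a gene's probes, each rat left out, and both muscle-rich arrays left out.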

Additional observations from a re-analysis of the deposited data

How the results depend on the processing

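Leaving out 1 rat at a time gave 2016 to 4902 changed probes in all and 9 to 31 called members, against 3694 and 23 on 6 arrays. By role the counts ran over 4 to 14 glycolytic enzymes, 2 to 5 flux and glycogen enzymes, 1 to 5 oxygen sensors and HIF subunits and 2 to 7 HIF targets outside glycolysis. Fewer rats leave fewer residual degrees of freedom, and without day 1 rat 3 the counts were the highest. Array weights gave 6123 changed probes, 35 members, 6 oxygen sensors and HIF subunits and 8 HIF targets outside glycolysis, and the cause was not tested. Median changes of the 4 roles moved by less than the spread between rats in the 9 alternatives run for them. Of the 23 called members, 9 passed in all alternatives, 14 lost the call in at least 1 and none changed sign. Besides the settings named in the text, Pfkm, Pgk1, Eno1 and Arnt lost it with no filter, and Gapdh passed with no background correction, cyclic loess and array weights. Pfkl passed with the offset of 16, Pfkfb1 with cyclic loess, and Pfkl, Ndrg1 and Car9 with the robust trend fit (adjusted p between 0.0331 and 0.0498). All 12 genes that gained a call in some alternative passed with array weights. Signs turned for Tpi1, Adm and 2 isozyme pairs, none of which had passed a test. The change of Tpi1 was 0.20 with array weights, 0.028 without both muscle-rich arrays and -0.27 to 0.010 without single rats, and that of Adm was 0.043 with array weights. The difference Hk2 minus Hk3 changed by 0.065 with cyclic loess and by -0.25 to 0.079 without single rats, and Eno1 minus Eno2 by -0.011 without both muscle-rich arrays and by -0.00089 to 0.47 without single rats. No paired analysis was possible because the rats of the 2 days carry different numbers. Signal near the array median limits Pfkfb2, Pfkfb3, Pfkfb4, Car9 and Car12, and the fixed top of the normalized scale limits Pgk1 and Tpi1. Gpi, Ldha and Aldoa also lay near that top, at ranks 43 to 191, 31 to 242 and 77 to 344 of 22517 rows. How far this limits their changes was not tested.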

Other observations

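Some subunits of the mitochondrial respiratory chain and ATP synthase were higher at day 3. Of 26 measured, 25 were tested, 7 rose and none fell, where 16.7% of all tested probes rose (limma adjusted p, median change 0.28, against -0.05 for all tested probes). Ndufa5, a subunit of complex I, had 12.64, 12.77 and 12.88 at day 3, against 11.43, 10.75 and 12.24 at day 1 (change 1.29, adjusted p = 0.0285). Atp5po, a subunit of ATP synthase, had 14.51, 14.64 and 14.54 at day 3, against 13.86, 13.64 and 14.18 at day 1 (change 0.67, adjusted p = 0.0185). Atp5f1b and Uqcrb changed by 0.50 (adjusted p = 0.0244) and 0.51 (adjusted p = 0.0469). Median signals of the 25 subunits were 12.43, 12.60 and 12.54 at day 3, against 12.06, 11.83 and 12.40 at day 1, with the muscle-rich day 1 rat 3 closest to the day 3 rats. The number of subunits that rose was 8 without both muscle-rich arrays and 8 without background correction. With cyclic loess it was 6, and the median change was 0.17, against -0.01 for all tested probes.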
